A study of Mus musculus with 18 samples.

Results

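The 9 genes described here, Gata6, Maf, Vsig4, Adgre1, Selp, Icam2, Cd34, Cd93 and Prg4, are known from macrophages that reside in the mouse peritoneal cavity. They were read here in libraries labelled as eosinophils. They were chosen by name, as the rows whose Ensembl identifier maps to these symbols, and they are 9 of the 54446 genes in the deposited table. Each had reads in all 18 libraries.

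Donor animals were Il5Tg mice, in which an Il5 transgene expressed in T cells raises eosinophil numbers far above normal, and the eosinophils were washed from their peritoneal cavity. The labels give the strain as C57BL/6, and the age and sex of the eosinophil donors are not given in the sources used here. Cells were purified by removing Thy1.2+ and B220+ cells, a step that takes away T and B cells and not macrophages. All 6 groups then received apoptotic cells (ACs), 5 per eosinophil, in a culture of 18 h. The ACs were wild-type thymocytes killed with dexamethasone, and anti-Siglec-F beads were used afterwards to recover the eosinophils. By flow cytometry the study reports high eosinophil purity before culture, and high purity and viability again after the bead step. The Type 1 experiment held IFN-γ + ACs, E. coli + ACs, IFN-γ + E. coli + ACs (called the joint stimulus below) and ACs alone, with 3 libraries each. The study describes the joint stimulus as IFN-γ first and E. coli after it. The IL-4 experiment held IL-4 + ACs and its own ACs alone, also with 3 libraries each. Each stimulus was compared with ACs alone of its own experiment, and cultures without ACs were not analysed here.

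Resident macrophages of the peritoneal cavity are mostly large cells of embryonic origin that depend on the transcription factor GATA6, which is induced by retinoic acid made in the surrounding tissue. They take up dead cells and are known for high F4/80 (the product of Adgre1), ICAM-2, VSIG4 and CD93. Several of the 9 genes are also known outside this cell type. Adgre1 is expressed by mouse eosinophils, Selp by platelets and endothelium, Cd34 by progenitors, endothelium and activated mouse eosinophils, and Icam2 by endothelium and many leukocytes. RNA was read from a whole cell preparation, so fewer cells of a type and less RNA per cell cannot be told apart in any value below.

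Values are normalized counts, which are reads on a gene divided by the library's size factor. Libraries held 779421 to 7782072 reads on genes (median 4461121). Both replicate 3 libraries of the IL-4 experiment were shallow, with 779421 reads with ACs alone and 849705 with IL-4 + ACs, so that 1 read stood for a normalized count of 5.3614 and 5.1399. A gene was called when its Benjamini-Hochberg adjusted p in limma was under 0.05 and its change at least 1.5-fold. Fold changes are on the scale of log2(normalized count + 1). Percentages of ACs alone are ratios of mean normalized counts, so they differ slightly from those fold changes.

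Markers of both cell types were read in every group. Of the 9 eosinophil markers, Ccr3 (an eotaxin receptor) had mean normalized counts of 2974 to 4498 and Siglecf (the bead target) of 1630 to 3237, and Epx (eosinophil peroxidase) stayed at means of 0.46 to 14.1. All 15 general macrophage markers passed the filter on low values in both experiments. C1qc, a complement subunit, had a mean of 8319 with ACs alone in the Type 1 experiment, and Csf1r, the receptor for the macrophage growth factor CSF1, had 1170. The summed normalized count of the 15 macrophage markers was highest with IFN-γ + ACs (36956 to 47593 per library) and lowest with the joint stimulus (18466 to 20845). ACs alone (25691 to 32594) and E. coli + ACs (21702 to 26108) lay between them and overlapped each other. IL-4 + ACs (25900 to 42389) and ACs alone of the same experiment (31826 to 45105) also overlapped. Abundant markers weigh most in such a sum. With E. coli + ACs the mean of Cd14 went from 5859 to 11059, whereas 7 of the 15 markers were called lower and 1 higher. Their median log2 fold change was -0.57. The summed count of the 9 eosinophil markers was lowest with IFN-γ + ACs (5471 to 6387), and it was 8456 to 8805 with ACs alone, 9784 to 10989 with E. coli + ACs and 8278 to 9682 with the joint stimulus. It was 10063 to 13280 with ACs alone of the IL-4 experiment and 14875 to 16287 with IL-4 + ACs. Ear6, a ribonuclease gene, weighed most in that rise, with means of 4515 and 8328. Siglecf (2625 and 2379) and Ccr3 (3440 and 3100 in the same order) did not rise. Of the 9 eosinophil markers 2 were called higher with IL-4 + ACs and 0 lower, with a median log2 fold change of 0.28. The macrophage sum and the eosinophil sum thus moved in opposite directions with IFN-γ + ACs. With that stimulus most macrophage markers were not called in either direction. There 3 of the 15 were called higher and 2 lower, with a median log2 fold change of 0.08. Of the 7 eosinophil markers tested, 3 were called lower and 0 higher, with a median of -0.71. The part of these shifts in the results on the 9 genes was not tested.

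The 250 bases before the transcription start are shown for Selp, Cd34 and Vsig4, the members found in the table of RefSeq promoters used here. Promoters of the other members were not analysed here. The sequences are from GRCm38.p6 and run 5′ to 3′ on the strand of the gene. Capitals mark matches, on either strand, to the letters searched for GATA factors (AGATAA or AGATAG or TGATAA or TGATAG) and for PU.1 (GAGGAA), a factor of myeloid genes.
Selp, chr1:164115014-164115263, plus strand: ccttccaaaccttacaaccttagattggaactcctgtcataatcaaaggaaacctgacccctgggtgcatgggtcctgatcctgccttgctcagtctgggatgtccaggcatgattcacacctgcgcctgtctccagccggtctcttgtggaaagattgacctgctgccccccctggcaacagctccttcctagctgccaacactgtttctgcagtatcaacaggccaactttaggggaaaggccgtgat
Cd34, chr1:194938571-194938820, plus strand: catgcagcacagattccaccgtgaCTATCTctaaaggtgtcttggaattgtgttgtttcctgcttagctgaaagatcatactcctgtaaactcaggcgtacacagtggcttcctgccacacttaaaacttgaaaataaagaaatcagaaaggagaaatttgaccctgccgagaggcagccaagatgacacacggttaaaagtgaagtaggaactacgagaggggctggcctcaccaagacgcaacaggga
Vsig4, chrX:96293439-96293688, minus strand: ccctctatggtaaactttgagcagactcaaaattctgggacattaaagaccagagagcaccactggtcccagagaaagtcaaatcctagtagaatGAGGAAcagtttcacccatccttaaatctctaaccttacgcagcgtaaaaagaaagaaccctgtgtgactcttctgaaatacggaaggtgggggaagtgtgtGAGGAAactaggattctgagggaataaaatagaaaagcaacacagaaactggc

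Within these windows Vsig4 held the PU.1 letters at 2 places, -155 and -53 from the start, Cd34 held 1 GATA match on the opposite strand at -226, and Selp held neither motif. Among 32851 RefSeq promoter windows of the same length, 26.5% held a GATA match and 23.3% the PU.1 letters. The letters of a Maf half-site (TGCTGA), of a STAT site (TTCNNNGAA) and of a STAT6 site, with 4 free bases in the middle, were in none of the 3 windows, and in 16.1%, 7.02% and 5.85% of all windows. A match is a string of letters and not a binding site.

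Gata6 (ENSMUSG00000005836.9), the transcription factor that sets the identity of large peritoneal macrophages, lies on chromosome 18 of GRCm38 from 11052064 to 11085635 on the plus strand. With ACs alone in the Type 1 experiment, replicates 1 to 3 had normalized counts of 187, 118 and 123. With E. coli + ACs they had 101, 81.8 and 87.1, and with IFN-γ + ACs 157, 199 and 172. The libraries with the joint stimulus were the lowest, at 42.8, 24.4 and 41.4, which rest on 20 to 30 reads each, and they did not overlap any other group. Gata6 fell to 25.3% of ACs alone with the joint stimulus (log2 fold change -1.96 ± 0.23 (SE), limma adjusted p = 2.15e-06). With E. coli + ACs all 3 libraries lay below ACs alone, and the change of -0.63 ± 0.23 on the log2 scale missed the threshold (limma adjusted p = 0.083). With array weights it passed (limma adjusted p = 0.016), as it did in edgeR (0.032) and DESeq2 (0.024) on the recovered reads. With IFN-γ + ACs the groups overlapped (0.33 ± 0.23, limma adjusted p = 0.33), and between the single stimuli Gata6 was 1.95-fold higher with IFN-γ + ACs than with E. coli + ACs (limma adjusted p = 0.0057). In the IL-4 experiment the values were 74.4, 106 and 182 with ACs alone and 121, 105 and 123 with IL-4 + ACs. These groups overlapped fully, with a difference of 0.04 ± 0.30 on the log2 scale.

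Of the 6 GATA factors, Gata1 and Gata2 were read beside Gata6, and Gata3 had a mean normalized count of 4.06 over the 18 libraries. Gata4 and Gata5 were at 0 in all of them. For counting error only, a 0 in 1 library allows an expected count of up to about 3 reads. Gata1, the factor that eosinophils need to form, went the other way from Gata6 with the joint stimulus. Its mean was 833 ± 24.9 (SD, n = 3) with ACs alone and 1283 ± 123 (SD, n = 3) with the joint stimulus, a rise of 0.62 on the log2 scale. Gata2, a factor of mast cells and progenitors, fell by 0.87 on the log2 scale with IFN-γ + ACs and its change with the joint stimulus, -0.47, missed the threshold.

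Retinoic acid acts upstream of Gata6 in peritoneal macrophages, and 17 genes of its synthesis, binding, receptors and breakdown were read. The filter on low values left 9 of them in the Type 1 and 10 in the IL-4 experiment. The joint stimulus raised 2 of them and lowered 3. Aldh1a2, which makes retinoic acid, went from 35.0 ± 7.21 (SD, n = 3) with ACs alone to 187 ± 55.7 (SD, n = 3), and it rose with each stimulus of the Type 1 experiment (1.45, 1.85 and 2.36 on the log2 scale with E. coli, IFN-γ and both). Cyp26a1, which breaks retinoic acid down, also rose with each, by 1.13 and 0.80 with the single stimuli. The receptor gene Rarg fell by 3.27 on the log2 scale with the joint stimulus and Dhrs3, which turns retinal back into retinol, by 1.81. Rara, another receptor gene, was called narrowly (-0.76, limma adjusted p = 0.047), with libraries from 292.5 to 1127 that overlapped the 835 to 1024 of ACs alone. With IL-4 + ACs only Cyp26b1, another retinoic acid-degrading enzyme, passed the threshold among these genes, with a rise of 4.21 on the log2 scale from a mean normalized count of 2.53 to 51.0.

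Maf (ENSMUSG00000055435.6, chromosome 8 from 115682942 to 115707794, minus strand) encodes c-MAF, a large Maf factor active in resident macrophages and in Il10 expression. With ACs alone in the Type 1 experiment its normalized counts were 751, 873 and 753. They were 763, 634 and 523 with E. coli + ACs and 607, 705 and 959 with the joint stimulus, both overlapping ACs alone. With IFN-γ + ACs the values of 1191, 1379 and 1514 lay above every other library of the series. Maf was 1.71-fold higher with IFN-γ + ACs than with ACs alone (0.78 ± 0.16 on the log2 scale, limma adjusted p = 0.0013) and 2.14-fold higher than with E. coli + ACs (limma adjusted p = 5.74e-05). With IL-4 + ACs the values of 715, 519 and 745 stood beside 441, 416.5 and 520.1 with ACs alone, with an overlap of 1 library by a normalized count of about 1. That change of 0.51 ± 0.17 on the log2 scale was close in size to the one with IFN-γ, did not pass (limma adjusted p = 0.37), and differed from it by -0.27 ± 0.25.

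Of the small Maf factors, which lack the activation domain of c-MAF, Maff rose by 2.07 with IFN-γ + ACs and by 2.81 with the joint stimulus on the log2 scale, Mafk by 0.96 with the joint stimulus and Mafg by 0.59 with E. coli + ACs. Mafa and Nrl had means under 1 over the 18 libraries. Maff, Mafg and Mafk did not pass the threshold with IL-4 + ACs.

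**Figure D1:**
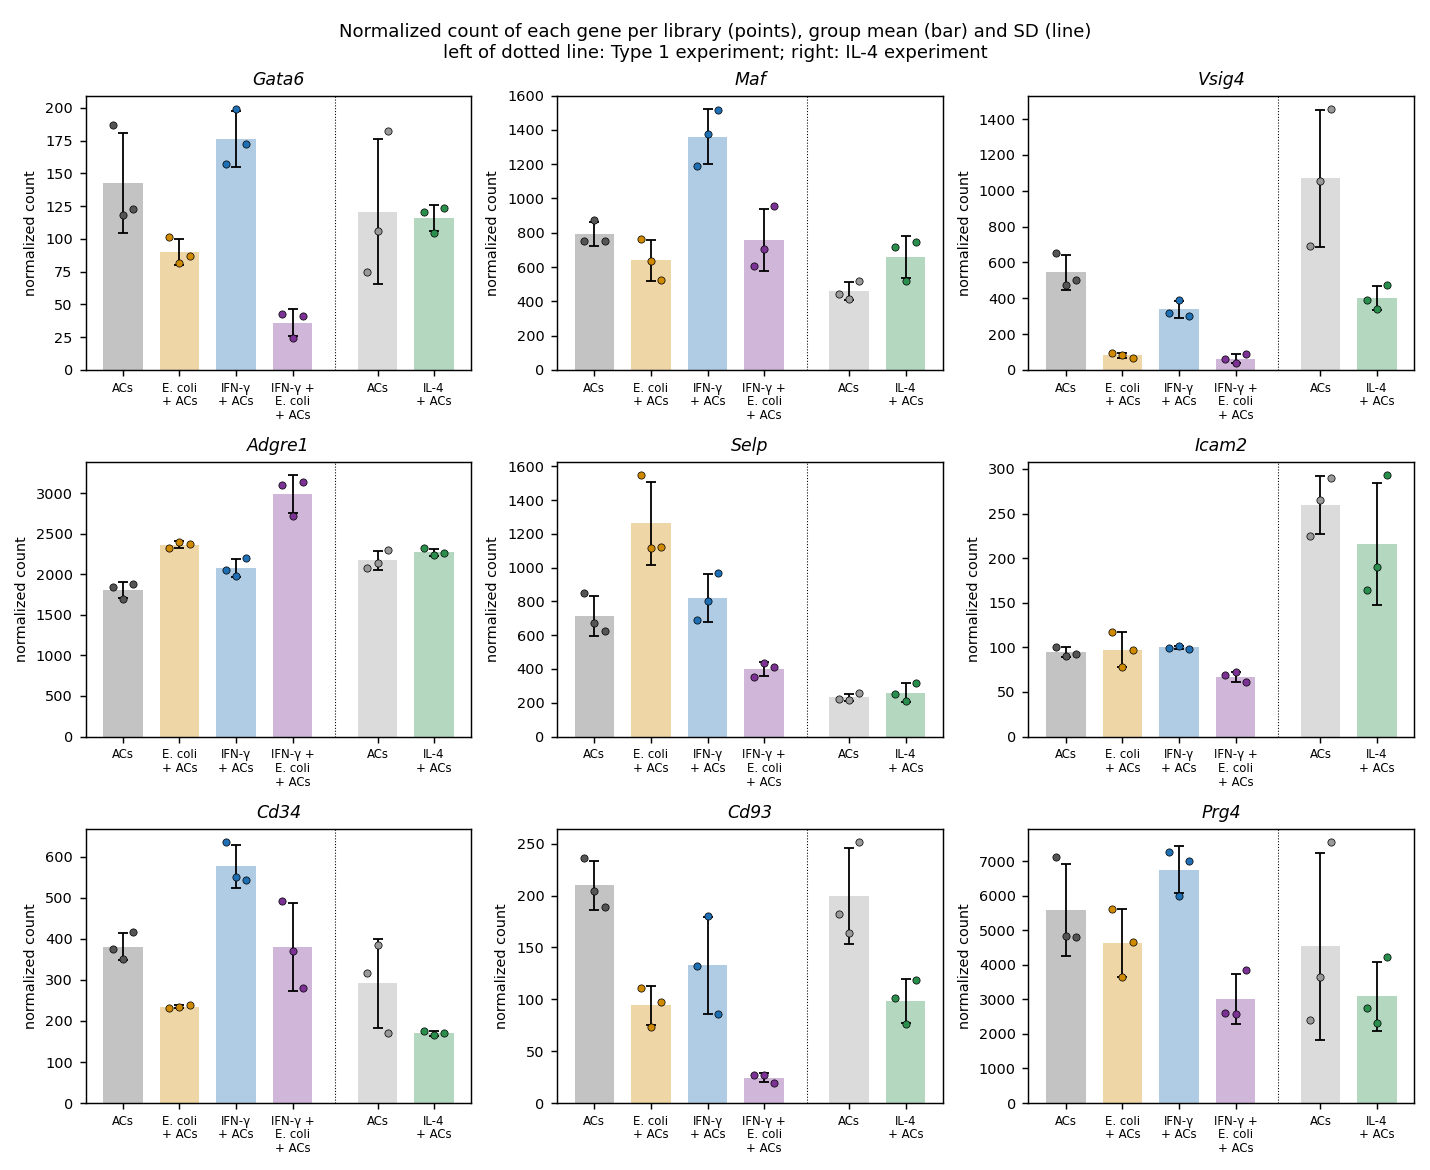
Normalized count (vertical axis) of each of the 9 genes in each of the 18 libraries (points), with the group mean (bar, from 0) and SD (line), for the 4 groups of the Type 1 experiment on the left of the dotted line and the 2 groups of the IL-4 experiment on the right. The points of the joint stimulus are the lowest of the Type 1 experiment for Gata6, Selp, Icam2 and Cd93, and for Adgre1 they are the highest.

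Vsig4 (ENSMUSG00000044206.3, chromosome X from 96247203 to 96293438, minus strand) encodes a complement receptor of resident macrophages, and it showed the largest changes of the 9 genes in every comparison of a stimulus with ACs alone other than that with IFN-γ + ACs. With ACs alone in the Type 1 experiment its normalized counts were 655, 473 and 505. With E. coli + ACs they were 93.8, 81.8 and 67.7, and with the joint stimulus 61.3, 36.7 and 86.9, so that these groups overlapped each other and lay far below ACs alone. Vsig4 fell 6.63-fold with E. coli + ACs (log2 fold change -2.73 ± 0.24, limma adjusted p = 2.17e-07), where only 15 of 10166 genes had a lower value, and 9.13-fold with the joint stimulus (-3.19 ± 0.24, limma adjusted p = 4.49e-09). With IFN-γ + ACs the libraries held 321, 391 and 304, below all ACs libraries and above all E. coli libraries. That fall of 0.68 ± 0.24 on the log2 scale passed narrowly (limma adjusted p = 0.041). It was lost without ACs replicate 1 (0.18), 2 (0.055) or 3 (0.077) and without IFN-γ + ACs replicate 1 (0.10) or 3 (0.12), the numbers being limma adjusted p-values.

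Among libraries of the IL-4 experiment Vsig4 had 694, 1055 and 1458 with ACs alone and 388, 341 and 473 with IL-4 + ACs. The groups did not overlap, and Vsig4 was the 1 gene of the 9 called there, with a fall of 1.36 ± 0.25 on the log2 scale to 37.5% of ACs alone (limma adjusted p = 0.031). Without IL-4 + ACs replicate 1 (limma adjusted p = 0.096), 2 (0.090) or 3 (0.071), or without ACs replicate 2 (0.12) or 3 (0.051), it no longer passed, with log2 fold changes of -1.49 to -1.11. The responses to IL-4 and to IFN-γ differed by -0.68 ± 0.37 on the log2 scale, which did not pass (limma adjusted p = 0.25).

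Adgre1 (ENSMUSG00000004730.15, chromosome 17 from 57358691 to 57483527, plus strand) encodes F4/80, a surface protein of mouse macrophages and eosinophils. Its libraries varied little within a group, with normalized counts of 1847, 1698 and 1874 with ACs alone and 2323, 2402 and 2373 with E. coli + ACs. The joint stimulus gave 3103, 2717 and 3140, whereas IFN-γ + ACs gave 2052, 1981 and 2202. All 4 groups of the Type 1 experiment stood apart from each other, in the order ACs alone, IFN-γ + ACs, E. coli + ACs and the joint stimulus. Only the joint stimulus passed, with a 1.65-fold rise (0.72 ± 0.10 on the log2 scale, limma adjusted p = 1.20e-05). After scaling to a common upper quartile, which moved the median log2 fold change of all genes by -0.14, the rise was 0.58, just short of 1.5-fold. The change of 0.39 ± 0.10 with E. coli + ACs had an adjusted p of 0.012 in limma and fell short of 1.5-fold. IL-4 + ACs, at 2319, 2241 and 2256, overlapped its ACs alone, at 2077, 2135 and 2300 (0.07 ± 0.11 on the log2 scale).

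Adgre1 thus rose with the joint stimulus while most macrophage markers did not. Of the 15 general macrophage markers, 1 rose and 10 fell with the joint stimulus, with a median log2 fold change of -1.57 beside -0.05 over all 10166 genes tested. Those that fell included C1qa (-2.49), C1qb (-1.19), C1qc (-1.83), Cd68 (-1.57) and the mannose receptor gene Mrc1 (-3.67). The 1 that rose was Mertk (0.60), a receptor for apoptotic cells, and Csf1r did not pass (-0.40). With E. coli + ACs 1 of the 15 rose (Cd14, 0.92) and 7 fell, with IFN-γ + ACs 3 rose (Lyz2, C1qb and Mertk) and 2 fell (Mrc1 and Cd163), and with IL-4 + ACs Mrc1 rose by 1.81 and none fell. Of the 9 eosinophil markers, the filter left 7 in the Type 1 and all 9 in the IL-4 experiment. The joint stimulus raised 1 of them (Gata1) and lowered 2 (Siglecf, -0.76, and Ear2, -3.38). E. coli + ACs raised Ear6, an eosinophil ribonuclease gene, and lowered Il5ra, an IL-5 receptor subunit gene (log2 fold change -0.64). IFN-γ + ACs lowered both (-0.93 and -0.71) and Siglecf (-0.99), and IL-4 + ACs raised Ear6 (0.91) and Ear2 (2.12). Of all genes tested, 10.3%, 21.4%, 31.9% and 1.09% were called with E. coli, IFN-γ, both and IL-4.

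**Figure D2:**
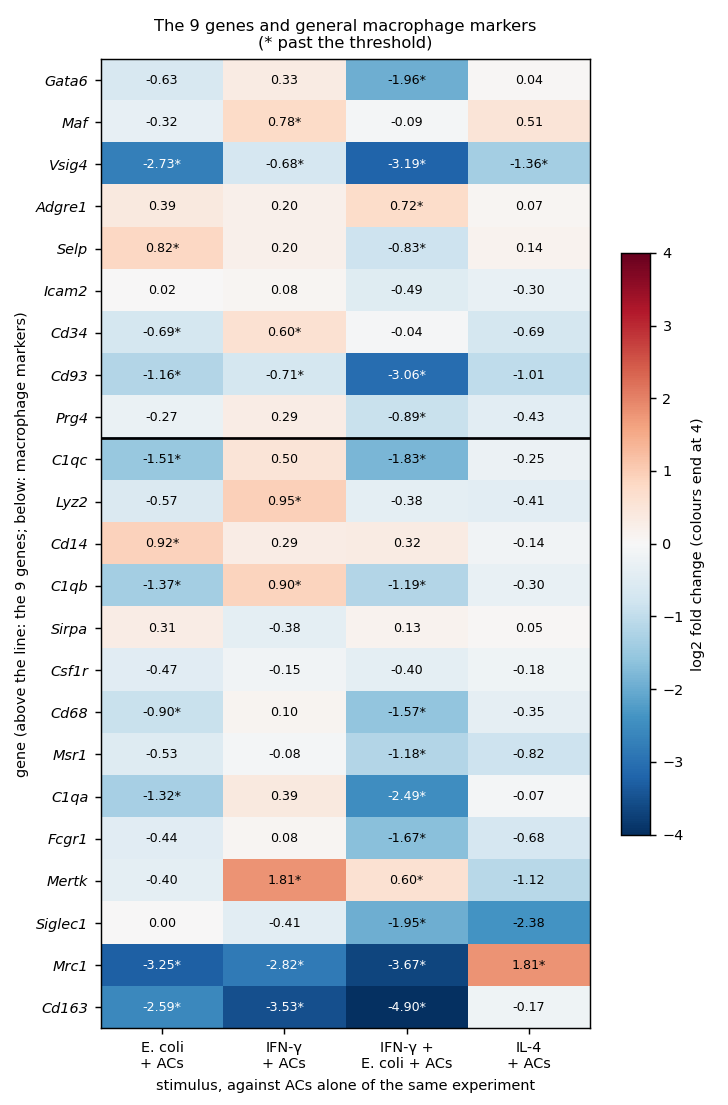
Log2 fold change (number and colour) of the 9 genes, above the line, and of 14 of the general macrophage markers, below it, in the 4 comparisons of a stimulus with ACs alone of the same experiment (columns), with an asterisk where a change passed the threshold. In the column of the joint stimulus, 5 of the 9 genes and 9 of the 14 markers carry an asterisk with a negative value, and Adgre1 and Mertk carry one with a positive value.

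Selp (ENSMUSG00000026580.16, chromosome 1 from 164115264 to 164150026, plus strand) encodes P-selectin, which tethers leukocytes to vessel walls and platelets. With ACs alone in the Type 1 experiment its normalized counts were 849, 670.1 and 622, and with E. coli + ACs 1548, 1118 and 1124. Every E. coli library lay above every ACs library, a 1.76-fold rise (0.82 ± 0.16 on the log2 scale, limma adjusted p = 0.0016). With the joint stimulus the values were 352, 437 and 409.8, below all other libraries of the Type 1 experiment. The direction with both stimuli was therefore opposite to that with E. coli alone, with a fall of 0.83 ± 0.16 on the log2 scale against ACs alone (limma adjusted p = 0.00042). With IFN-γ + ACs, at 687, 801 and 971, Selp overlapped ACs alone (0.20 ± 0.16). It was 1.54-fold lower with IFN-γ + ACs than with E. coli + ACs (limma adjusted p = 0.0084), which did not pass without E. coli + ACs replicate 1 (limma adjusted p = 0.070) or IFN-γ + ACs replicate 1 (0.052). All libraries of the IL-4 experiment were lower, at 222, 218 and 257 with ACs alone and 250.3, 208 and 319 with IL-4 + ACs, and the groups overlapped (0.14 ± 0.19). The mean with ACs alone of that experiment was 32.6% of the mean with ACs alone of the Type 1 experiment, and both experiments differed in more than the stimulus, so no test was made between them.

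Selplg, the ligand that P-selectin binds on leukocytes, had a mean normalized count of 4394 over the 18 libraries and did not pass the threshold with any stimulus. Sele (E-selectin), which marks activated endothelium, had a mean of 0.789. Among the other markers of cells that make P-selectin, Itga2b had a mean of 1250 and Pf4 of 1777, whereas the platelet genes Gp9, Gp5 and Gp1bb were at 0 in all 18 libraries. Of the 3 such genes that passed the filter, Pf4 fell with the joint stimulus by 1.42 and with IFN-γ + ACs by 0.60, and Ppbp rose with E. coli + ACs by 1.46, on the log2 scale. The 9 endothelial markers summed to 117 to 370.1 per library, most of it Pecam1, with means of 0.178 for Cdh5, 0.0639 for Tek and 0.0294 for Emcn. Of the 2 endothelial markers tested in the Type 1 experiment, Flt1 fell with the joint stimulus (-2.67), and IL-4 + ACs changed none of 3. The part of platelets and endothelium in the Selp values was not tested.

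Icam2 (ENSMUSG00000001029.15, chromosome 11 from 106377656 to 106388075, minus strand) encodes an adhesion molecule that binds LFA-1. It was the least changed of the 9 genes with the single stimuli of the Type 1 experiment, at 101, 90.1 and 93.0 with ACs alone, 117, 77.7 and 96.8 with E. coli + ACs and 98.9, 102 and 98.5 with IFN-γ + ACs. These 3 groups overlapped, with log2 fold changes of 0.02 ± 0.19 and 0.08 ± 0.19. Under the joint stimulus the values of 68.4, 72.1 and 60.7 lay below every other library of the series. The change of -0.49 ± 0.19 on the log2 scale had a limma adjusted p of 0.049 and fell short of 1.5-fold, and it passed after scaling to a common upper quartile (-0.63). With IL-4 + ACs the values of 164, 190.2 and 293 overlapped the 225, 265 and 289.5 of ACs alone (-0.30 ± 0.23).

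Cd34 (ENSMUSG00000016494.9, chromosome 1 from 194938819 to 194961279, plus strand) encodes a sialomucin of progenitors and endothelium that is also found on mouse eosinophils and mast cells. Its normalized counts with ACs alone in the Type 1 experiment were 377, 351 and 417. With E. coli + ACs they were 232, 235 and 238, all lower, and with IFN-γ + ACs 637, 550.2 and 544, all higher. The single stimuli thus went in opposite directions, with a fall of 0.69 ± 0.16 with E. coli + ACs (limma adjusted p = 0.0074) and a rise of 0.60 ± 0.16 with IFN-γ + ACs (limma adjusted p = 0.011), both on the log2 scale. The difference between them was 2.44-fold (limma adjusted p = 1.01e-05). The libraries with the joint stimulus spread from 280.1 to 493 around ACs alone (-0.04 ± 0.16), close to the sum of the single changes, -0.10. The rise with IFN-γ did not pass without ACs replicate 2 (limma adjusted p = 0.052) or without IFN-γ + ACs replicate 1 (0.0502), and it fell short of 1.5-fold after upper quartile scaling (0.51 on the log2 scale), in edgeR (0.57) and in DESeq2 (0.58). With all 18 libraries in one fit its limma adjusted p was 0.054.

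Cd34 had 177, 165 and 169.6 with IL-4 + ACs and 318, 385 and 172 with ACs alone, so that the groups overlapped only through replicate 3 of ACs alone. That library is the shallowest of the series, and its value rests on 32 reads. With all libraries the change of -0.69 ± 0.27 on the log2 scale did not pass (limma adjusted p = 0.45). Without ACs replicate 3 it passed at -1.04 (limma adjusted p = 0.020), and without both replicate 3 libraries at -1.03 (limma adjusted p = 0.00092). The response of Cd34 to IL-4 was lower than its response to IFN-γ by 1.29 ± 0.31 on the log2 scale (limma adjusted p = 0.0064), and Cd34 was the only one of the 9 genes for which the 2 responses differed past the threshold. Of the 10414 genes tested, 14.3% differed between these responses, 8.09% lower and 6.17% higher with IL-4.

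Cd93 (ENSMUSG00000027435.8, chromosome 2 from 148436640 to 148443563, minus strand) encodes a C-type lectin-like receptor of endothelium, progenitors and phagocytes. Its normalized counts were 236, 205 and 189 with ACs alone in the Type 1 experiment and 111, 73.6 and 97.6 with E. coli + ACs, and it fell 2.24-fold (log2 fold change -1.16 ± 0.25, limma adjusted p = 0.0035). With the joint stimulus it was down to 27.1, 26.9 and 19.3, which rest on 14 to 22 reads each. That was 11.6% of ACs alone (-3.06 ± 0.25 on the log2 scale, limma adjusted p = 1.44e-08), and all 3 libraries lay below every other library of the series. With IFN-γ + ACs, at 132, 180.0 and 86.2, the spread was wide, and the groups did not overlap. The fall of 0.71 ± 0.25 on the log2 scale passed narrowly (limma adjusted p = 0.040). It was lost without ACs replicate 1 (limma adjusted p = 0.14), 2 (0.088) or 3 (0.067) and without IFN-γ + ACs replicate 1 (0.071) or 3 (0.21). With IL-4 + ACs its values of 101, 75.9 and 118 lay below the 183, 163 and 252 of ACs alone. The change of -1.01 ± 0.24 on the log2 scale did not pass in limma (adjusted p = 0.12), passed in edgeR (0.027) and DESeq2 (0.012) on the recovered reads, and passed with all 18 libraries in one fit (0.039).

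Prg4 (ENSMUSG00000006014.16, chromosome 1 from 150449412 to 150466165, minus strand) encodes proteoglycan 4, or lubricin, a secreted lubricating glycoprotein that large peritoneal macrophages also make. It had 7125, 4847 and 4795 with ACs alone in the Type 1 experiment. Its values of 5621, 3643 and 4660.3 with E. coli + ACs and of 7273, 5988 and 6998 with IFN-γ + ACs overlapped ACs alone and lay apart from each other. The joint stimulus, at 2617, 2576 and 3847, lay below ACs alone and overlapped E. coli + ACs. Prg4 fell to 53.9% of ACs alone there (log2 fold change -0.89 ± 0.18, limma adjusted p = 0.00057). With the single stimuli it was not called, at 0.29 ± 0.18 for IFN-γ and -0.27 ± 0.18 for E. coli on the log2 scale. ACs alone of the IL-4 experiment gave 2396, 3642 and 7565, and IL-4 + ACs gave 2745, 2314 and 4215. The highest value of each group came from its shallow replicate 3 library, and the groups overlapped (-0.43 ± 0.36). In both groups of that experiment replicate 3 was also the highest for Gata6, Maf, Vsig4, Selp, Icam2 and Cd93. For Adgre1 this held with ACs alone only, and for Cd34 in neither group. The cause of this shared pattern was not tested.

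**Figure D3:**
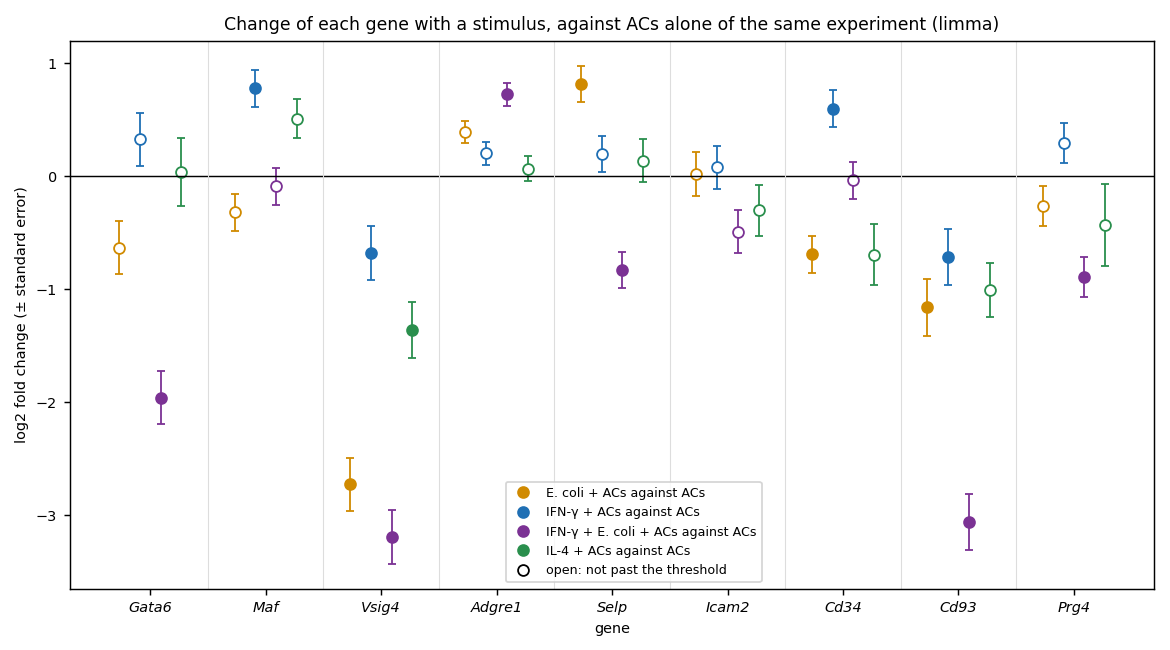
Log2 fold change (vertical axis, point) with its standard error (line) of each of the 9 genes (horizontal axis) with each stimulus against ACs alone of the same experiment, where filled points passed the threshold. Vsig4 is filled in all 4 comparisons, Cd93 in 3, and Icam2 in none.

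Over the 9 genes, all of which passed the filter on low values in every fit, E. coli + ACs raised 1 (Selp) and lowered 3 (Vsig4, Cd34 and Cd93), where 10.3% of the 10166 genes tested changed, 5.05% up and 5.25% down. IFN-γ + ACs raised 2 (Maf and Cd34) and lowered 2 (Vsig4 and Cd93), beside 21.4% of all genes, 11.4% up and 9.96% down. The joint stimulus raised 1 (Adgre1) and lowered 5 (Gata6, Vsig4, Selp, Cd93 and Prg4), beside 31.9%, 14.7% up and 17.2% down. IL-4 + ACs raised none and lowered 1 (Vsig4), beside 1.09% of 10669 genes, 0.74% up and 0.347% down. Scaling to a common upper quartile turned the calls of the joint stimulus over all genes from 1494 up and 1746 down to 1155 up and 2200 down. The groups did not overlap for 6, 5 and 7 of the 9 genes with E. coli, IFN-γ and both, and for 2 with IL-4, beside 38.3%, 42.9%, 48.8% and 17.3% of all genes. The median log2 fold change of the 9 genes was -0.32, 0.20, -0.83 and -0.30 in the same order, and that of all genes tested was between -0.05 and 0. These comparisons of the Type 1 experiment share their ACs libraries.

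The single stimuli of the Type 1 experiment were also compared with each other. Gata6, Maf, Vsig4 and Cd34 were higher with IFN-γ + ACs than with E. coli + ACs and Selp was lower, where 16.6% of 10166 genes differed, 9.84% higher and 6.72% lower. The groups did not overlap for 7 of the 9 genes, beside 36.8% of all genes. The largest of these differences was that of Vsig4, 2.05 ± 0.24 on the log2 scale (limma adjusted p = 3.13e-06). Prg4 was also higher with IFN-γ, by 0.56 ± 0.18 (limma adjusted p = 0.031), short of 1.5-fold. It was past 1.5-fold without E. coli + ACs replicate 1 (0.71) or IFN-γ + ACs replicate 2 (0.64). Cd93 overlapped (0.45 ± 0.25) and passed without IFN-γ + ACs replicate 3, at 0.72 (limma adjusted p = 0.044).

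Whether the joint stimulus equalled the sum of the single ones was tested as the interaction of IFN-γ and E. coli, the log2 fold change with both minus the sum of those with each. It was below 0 and past the threshold for 4 of the 9 genes, Selp, Gata6, Cd93 and Prg4, and above 0 for none, where 7.44% of the 10166 genes passed, 4.28% below 0 and 3.16% above. For Selp the single changes summed to 1.02 and the joint change was -0.83, an interaction of -1.84 ± 0.23 (limma adjusted p = 3.96e-05). For Gata6 the sum was -0.31 and the joint change -1.96, an interaction of -1.65 ± 0.33 (limma adjusted p = 0.0043). Both passed in every alternative setting and without any 1 library.

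The interaction of Cd93, -1.19 ± 0.35, was close to the threshold (limma adjusted p = 0.046). Among the 12 libraries of the experiment, leaving out ACs replicate 1, 2 or 3, E. coli + ACs replicate 1 or 3, IFN-γ + ACs replicate 1 or 2, or IFN-γ + E. coli + ACs replicate 1 or 3 raised its limma adjusted p to between 0.053 and 0.13. That of Prg4, -0.92 ± 0.25 (limma adjusted p = 0.031), was lost without ACs replicate 2 or 3, E. coli + ACs replicate 1 or 3, IFN-γ + ACs replicate 1, or IFN-γ + E. coli + ACs replicate 1 or 2, at adjusted p-values of 0.0504 to 0.10. The interaction of Maf did not pass (-0.54 ± 0.23) and passed without IFN-γ + E. coli + ACs replicate 3 (-0.73, limma adjusted p = 0.035). For Vsig4 (0.22 ± 0.34), Adgre1 (0.13 ± 0.14) and Cd34 (0.06 ± 0.23) the joint change lay within 1 standard error of the sum, and for Icam2 the difference of -0.59 ± 0.27 did not pass.

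**Figure D4:**
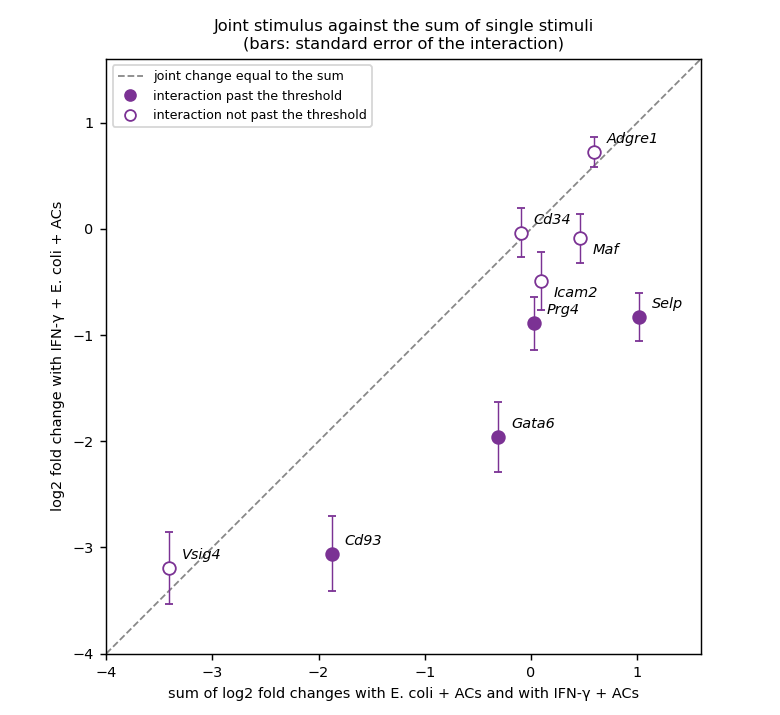
Log2 fold change of each of the 9 genes with IFN-γ + E. coli + ACs (vertical axis) against the sum of its log2 fold changes with the single stimuli (horizontal axis), with the standard error of the interaction as a line. On the dashed line both are equal, and the 4 filled genes, Selp, Gata6, Cd93 and Prg4, lie below it past the threshold.

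The 20 other markers of large peritoneal macrophages did not move as 1 group. Of 19 that passed the filter, 2 rose and 3 fell with E. coli + ACs, 7 rose and 4 fell with IFN-γ + ACs, 4 rose and 5 fell with the joint stimulus, and 2 fell with IL-4 + ACs. Of all genes tested, 10.3%, 21.4%, 31.9% and 1.09% were called in the same order. Saa3, an acute phase gene, did not pass with any stimulus. With IFN-γ + ACs the genes that fell included Cxcl13, a B cell chemokine gene (log2 fold change -1.43), F5, a coagulation factor gene (-0.89), and Alox15, a lipoxygenase gene also high in eosinophils (-0.79). Those that rose included the phosphatidylserine receptor gene Timd4 (0.997), the scavenger receptor gene Marco (2.17) and the coagulation factor gene F10 (2.04). The joint stimulus raised Thbs1 (2.84), Serpinb2 (1.64), F10 (0.83) and Marco (0.84), and among those it lowered were Cxcl13 (-2.13), Itga6 (-1.73), Cd5l (-1.34) and Fn1 (-1.31). IL-4 + ACs lowered Marco (-2.58) and Ltbp1, a TGF-β binding protein gene (-1.91). The median log2 fold change of the 19 was -0.21, 0.30, -0.29 and -0.53 with E. coli, IFN-γ, both and IL-4. That of all genes tested was -0.004, -2.07e-06, -0.05 and -0.008.

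Markers of several other cell types were also read, and some of them fell where members of the 9 genes fell. Of the 10 markers of small peritoneal macrophages and dendritic cells, 6 passed the filter in the Type 1 experiment, where IFN-γ + ACs raised 4, all of them genes of MHC class II presentation (H2-Ab1, H2-Aa, H2-Eb1 and Cd74), and lowered Ccr2. The joint stimulus raised 4 and lowered none of them, E. coli + ACs raised Itgax, and IL-4 + ACs changed none of the 8 tested. The 6 mesothelial markers summed to at most 15.8 per library and the 11 thymocyte markers, which the ACs could carry, to between 21.4 and 177. Of the B cell markers, Ighm fell with all stimuli of the Type 1 experiment, from a mean of 911 with ACs alone to 246, 109.9 and 128 with E. coli, IFN-γ and both. Of the 3 thymocyte markers tested, Thy1 fell with IFN-γ + ACs (-1.77) and under the joint stimulus (-2.09). The mast cell markers summed to at most 66.5, with Cpa3 higher in the same groups (2.75 and 3.03), and of the neutrophil markers Retnlg had a mean of 2350 over the 18 libraries whereas Ly6g, Ngp, Elane, Camp and Mpo had means under 10. Retnlg fell with the joint stimulus (-0.86), and S100a9, at a mean of 22.9, rose with each stimulus of the Type 1 experiment (2.52 to 4.05). With IL-4 + ACs the filter left only 1 thymocyte, 2 B cell, 2 neutrophil and 0 mast cell markers to test, and none of these passed. The part of these cells in the values of the 9 genes was not tested.

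Across the 18 libraries, after the mean of ACs alone of the same experiment was subtracted, Vsig4 and Cd93 varied together (Pearson r = 0.855), as did Gata6 with Cd93 (0.847) and with Vsig4 (0.825). Adgre1 varied against them, with r of -0.904 with Cd93, -0.827 with Vsig4 and -0.772 with Gata6. These correlations are descriptions over libraries that share their groups and controls. Among 6907 genes, the pattern of Gata6 was most like that of Slc25a5 (r = 0.946), Hgsnat (0.942) and Il6ra (0.923). Vsig4 was most like Serpinb6a (0.949), Selenop (0.944) and Gnpda1 (0.937), and Cd93 most like Gusb (0.948), Cbr2 (0.942) and Aldh2 (0.938). For Adgre1 the nearest were Csf2rb2 (0.983), Rbpj (0.961) and Rnf34 (0.959), and for Maf they were Ifi204 (0.880), Pdia6 (0.868) and Arg1 (0.860). The other members had looser neighbours, with Per1 for Cd34 (0.865), Atp5e for Selp (0.830), 1110008P14Rik for Icam2 (0.883) and Ms4a8a for Prg4 (0.862).

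Genes on the opposite strand overlap Gata6 (1010001N08Rik), Maf (Gm15655), Selp (Gm16587 and Gm16548), Cd34 (Gm16897) and Prg4 (Tpr). Whether the authors' counting used strand is not given in the sources used here, so reads of these pairs may not be told apart. Vsig4, Adgre1, Icam2 and Cd93 overlap no other annotated gene.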

How the data were processed

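CEL-Seq2 libraries, which read the 3' ends of transcripts, were made from 18 samples in 6 groups of 3. The authors deposited 1 signal value per gene and library, the reads counted on the gene divided by the size factor of the library as DESeq2 computes it. The submitters' processing notes name TopHat2 2.1.0, HTSeq 0.6.1, DESeq2 1.26.0 and the build GRCm38. The study's methods also describe another pipeline, and which of them made this table was not settled. Whole reads were recovered for 100.0% of the values in every library (tolerance 0.05 of 1 read). Of the 54446 identifiers, 54409 matched a symbol. Groups and replicate numbers came from the sample labels.

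Linear models with a trended empirical Bayes step (limma 3.58.1, R 4.3.3) were fitted to log2(normalized count + 1) for genes whose mean over the fitted libraries reached 10. The fitted libraries were the 12 libraries of the Type 1 experiment (10166 genes), the 6 of the IL-4 experiment (10669 genes) or, for the difference between the responses to IL-4 and IFN-γ, all 18 (10414 genes). Calls needed a Benjamini-Hochberg adjusted p under 0.05 over all genes tested and a change of 1.5-fold. Library differences within a group exceeded counting error, with a chi-square per degree of freedom of 4.19 to 14.69 between replicates. The study describes its replicates as biological, and the eosinophils sequenced with ACs as coming from a different mouse in each lane, whereas the sample labels name no animals. A count of 0 allows an expected count of up to about 3 reads in a library, for counting error only.

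The 9 genes and all lists were chosen with earlier results of these data known. Named from each list were the 4 genes with the highest mean, those past the threshold in a comparison where at most 4 were, families (GATA factors, Maf factors and selectins, of which some genes are not reported here) and, for each of the 9 genes, the 3 with the most similar pattern among genes with a mean of at least 50, of which some are printed. Csf1r, Mertk, C1qa, Cd68, Cd163, Timd4, F10, Thbs1, Serpinb2, Itga6, Fn1, Cd5l, Epx, Ccr2, Gp9, Gp5, Gp1bb, Cdh5, Tek, Emcn, Elane, Camp and Mpo were named in addition, after their values were seen. The alternatives were a pseudocount of 5, no filter, a mean of at least 50, a common upper quartile, the replicate number as a block, weighting of the libraries (array weights), count models of the recovered reads in DESeq2 1.42.0 and edgeR 4.0.16, a single fit of all 18 libraries, calls without the fold limit, and fits without 1 library or without both replicate 3 libraries of the IL-4 experiment. The fits were tested on simulated data. Python 3.11.15 with pandas 2.3.3 was used for tables. Promoter sequences are from RefSeq.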

Additional observations from a re-analysis of the deposited data

Results flagged for a closer look

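For 4 of the 9 genes the effect of E. coli differed with and without IFN-γ, by the test of the interaction in limma over the 12 libraries of the Type 1 experiment, beside 7.44% of all 10166 genes tested. On the log2 scale the difference was -1.84 for Selp, where E. coli + ACs raised the gene and the joint stimulus lowered it. It was -1.65 for Gata6 and -1.19 for Cd93, where the joint stimulus lowered the gene by more than the single changes add up to. For Prg4 it was -0.92, where the single changes summed to 0.03 and the joint change was -0.89. The calls of Selp and Gata6 held in every alternative run. That of Cd93 was lost on leaving out any of 9 of the 12 libraries and that of Prg4 on leaving out any of 7, and both were lost without a filter on low values and in the fit of all 18 libraries. Cd93 was also lost with a pseudocount of 5. The summed macrophage markers were also lowest with the joint stimulus, and their part in these differences was not tested.

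For Cd34 the response to IL-4 minus the response to IFN-γ was -1.29 on the log2 scale, by the test of that difference over all 18 libraries. The 2 responses come from different experiments, each against its own ACs alone, so the stimulus and the experiment cannot be told apart in it.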

How the results depend on the processing

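No called change of the 9 genes turned its direction under the alternatives run. Of the recomputed counts of called genes among the 9, 214 stayed within 1.5 times the count in the report and 36 did not. Without a filter on low values, IFN-γ + ACs lowered 0 of the 9 genes, IL-4 + ACs lowered 2 and the interaction was below 0 for 2. With a common upper quartile, IFN-γ + ACs raised 1 and the joint stimulus raised 0. Among all genes that scaling moved the joint comparison from 1494 higher and 1746 lower to 1155 and 2200. With array weights IFN-γ + ACs lowered 1 and IL-4 + ACs lowered 3. In edgeR and in DESeq2 IFN-γ + ACs raised 1 and IL-4 + ACs lowered 2. With all 18 libraries in one fit IFN-γ + ACs raised 1 and lowered 1, IL-4 + ACs lowered 2 and the interaction was below 0 for 2. With no fold threshold E. coli + ACs raised 2. Without both replicate 3 libraries IL-4 + ACs lowered 3.

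Leaving out 1 library at a time, IFN-γ + ACs raised 1 to 2 genes and lowered 0 to 2, IL-4 + ACs lowered 0 or 1, and the interaction was below 0 for 2 to 4. Between the single stimuli, 4 to 5 genes were higher and 0 to 1 lower with IFN-γ. The counts with E. coli + ACs (1 higher, 3 lower) and with the joint stimulus (1 higher, 5 lower) did not move. Fits that leave a group with 2 libraries share the spread of the other groups. Among all genes, calls with IL-4 + ACs (79 higher, 37 lower) moved the most, to 389 and 356 with array weights, 345 and 311 without both replicate 3 libraries, 127 and 85 in edgeR, 128 and 81 in DESeq2, 125 and 83 without a filter, 116 and 105 in the fit of all 18 libraries, and 31 and 16 without IL-4 + ACs replicate 1. A mean of at least 50 left 1303 and 963 calls for the joint stimulus and 981 and 645 for IFN-γ + ACs. Array weights gave 648 and 870 with E. coli + ACs, and 1142 and 1281 for the response to IL-4 against that to IFN-γ. The interaction went from 321 and 435 to 485 and 507 in DESeq2, 214 and 281 in the fit of all 18 libraries, and 161 and 239 without E. coli + ACs replicate 1. The causes of these changes were not tested.

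The deviations of same-numbered libraries from their group means had a mean correlation of 0.0056 over 18 pairs in the Type 1 experiment and 0.041 over 3 in the IL-4 experiment. Between IFN-γ + ACs and the joint stimulus all 3 same-numbered pairs correlated, at 0.169, 0.184 and 0.245. The other pairs of these groups had -0.162 to 0.020. These 2 groups were compared with each other only within the interaction, and no other 2 groups had all 3 pairs over 0.1. Between E. coli + ACs and IFN-γ + ACs all 3 same-numbered pairs were negative, at -0.125, -0.111 and -0.122, against -0.00045 to 0.125 for the other pairs. Whether the numbers mark shared samples was therefore not settled. With the replicate block no call on the 9 genes changed, the interaction included (limma adjusted p = 0.038 for Cd93 and 0.014 for Prg4), calls over all genes with IL-4 + ACs were 45 higher and 29 lower, and the log2 fold change of Vsig4 with E. coli + ACs was -2.73 (limma adjusted p = 4.25e-07).

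Depth limits Gata6 and Cd93 with the joint stimulus, which rest on 14 to 30 reads per library, and all genes in the 2 shallow libraries of the IL-4 experiment, where 3 reads stand for normalized counts of 15.4 and 16.1.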
